A study of Mus musculus with 3 samples.

Results

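The whole transcriptome of the highly metastatic cell line LuM1 was compared with that of its parental line, Colon26, a murine colon adenocarcinoma of female BALB/c mice. A second, weakly metastatic subline, NM11, is given only as a side value. All lines were grown untreated for 3 days in RPMI1640 with 10% serum, and RNA of each was hybridized to 1 single-colour oligonucleotide array. Every probe that was not a control on the LuM1 and Colon26 arrays was taken, 56605 in all, and 32994 of them (58.3%) could be named. They represented 22911 genes, which are all the named genes of the series. LuM1 is a single derived subline, so a difference from Colon26 describes this subline and not metastatic cells at large. With 1 array per line there was no replicate check and no test could be run, so every difference below is between 2 arrays.

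A carcinoma cell that spreads has to pass through matrix, survive in blood and grow in a foreign tissue. Secreted proteases, matrix proteins, chemokines and the receptors for them are known to take part in each of these steps. Nuclear factor kappa-B (NF-kB) and activator protein 1 (AP-1) are transcription factors that switch on many of the secreted inflammatory proteins, and NF-kB also switches on its own inhibitors. Growth itself draws on ribosome production, the cell cycle and amino acid and lipid synthesis.

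The bases before the start of 4 genes are shown because these genes stood at the extremes of the comparison, 3 of them higher in LuM1 cells and 1 lower. The sequences are from RefSeq on build GRCm38.p6, run 5′ to 3′ toward the gene, and end at the base before the annotated start, 250 bases in each. Capitals mark the letters TGANTCA, the AP-1 motif, searched on both strands. *Cxcl1* (chr5:90890995-90891244, plus strand) and *Mmp3* (chr9:7445572-7445821, plus strand) were the genes with the largest ratios among those measured on both arrays. *Lcn2* (chr2:32387740-32387989, minus strand) encodes the iron-carrier binding protein lipocalin-2. *Col1a2* (chr6:4505368-4505617, plus strand) was the gene furthest in the other direction.
Cxcl1: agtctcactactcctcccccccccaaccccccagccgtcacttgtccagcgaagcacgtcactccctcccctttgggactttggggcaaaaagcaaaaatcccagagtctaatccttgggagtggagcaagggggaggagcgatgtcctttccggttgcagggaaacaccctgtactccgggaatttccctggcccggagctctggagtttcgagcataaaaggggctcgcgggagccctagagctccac
Mmp3: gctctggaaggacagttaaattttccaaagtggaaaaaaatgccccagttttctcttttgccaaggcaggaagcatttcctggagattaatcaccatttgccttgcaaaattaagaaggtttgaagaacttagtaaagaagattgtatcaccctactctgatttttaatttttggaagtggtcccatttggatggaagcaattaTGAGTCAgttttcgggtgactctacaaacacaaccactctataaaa
Lcn2: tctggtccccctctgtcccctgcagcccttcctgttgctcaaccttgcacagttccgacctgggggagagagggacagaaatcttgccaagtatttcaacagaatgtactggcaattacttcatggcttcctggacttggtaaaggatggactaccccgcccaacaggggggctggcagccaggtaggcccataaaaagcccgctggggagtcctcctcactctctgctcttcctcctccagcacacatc
Col1a2: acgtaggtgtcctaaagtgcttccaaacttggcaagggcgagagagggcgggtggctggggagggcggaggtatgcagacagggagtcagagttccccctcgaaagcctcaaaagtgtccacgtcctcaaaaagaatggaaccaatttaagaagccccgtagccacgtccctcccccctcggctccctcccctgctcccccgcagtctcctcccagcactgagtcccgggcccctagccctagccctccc

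The window of *Mmp3* held 1 match of TGANTCA, and the windows of *Cxcl1*, *Lcn2* and *Col1a2* held none, which says only that these letters were not in these windows. Of the 27025 genes with such a window, 6.87% held the letters, as did 4.92% of the genes readable in the comparison. The share was 7.09% (45 of 635) among genes with a LuM1 signal 4-fold or more above that of Colon26 and 8.19% (33 of 403) among genes 4-fold or more below it. A match is a description of the sequence and not a measured binding site.

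Signals were set to a common 75th percentile of 400.0 units, and a gene was counted as readable where the scanner software placed it well above background in LuM1 or Colon26 cells. This held for 14353 genes, of which 12397 were read on both arrays, 1321 only on the LuM1 array and 635 only on the Colon26 array. A gene read on 1 array has only a bound, taken against the larger of its own dim signal and the lowest signal above background of that array, which was 19.8 for LuM1 and 26.4 for Colon26. Where the dim signal was the larger, as for *Saa3*, *Mmp13* and *Fos*, the bound is a plain ratio and not a lower limit. Counting 2-fold or more, 1822 readable genes (12.7%) had the higher signal in LuM1 cells and 1731 (12.1%) the lower, so that 51.3% of the 3553 genes apart were higher. With the array-wide factors that the authors applied to their own processed values, these numbers were 3038 and 874, and 77.7% of the genes apart were higher. Relative to the scaling used here, the authors' values move the median of all genes by 0.46 on the log2 scale. Leaving out scaling alone moves it by 0.12. List medians are therefore also given relative to the median of all genes, with the counts under the authors' values where these differ markedly.

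Larger differences were more often upward. At 4-fold the counts were 840 (5.85%) higher and 546 (3.8%) lower, at 8-fold they were 437 (3.04%) higher and 298 (2.08%) lower, and at 64-fold 67 (0.467%) and 31 (0.216%). Among the 12397 genes read on both arrays, the median log2 ratio was -0.15 and the quartiles were -0.57 and 0.32, with 80.4% of genes within 2-fold. On that footing 1180 genes (9.52%) were at least 2-fold higher and 1253 (10.1%) lower. The plot of LuM1 against Colon26 signals shows both the narrow body of genes and the wide margins. In RNA from a whole culture, fewer cells of a type and less RNA per cell cannot be told apart.

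**Figure D1:**
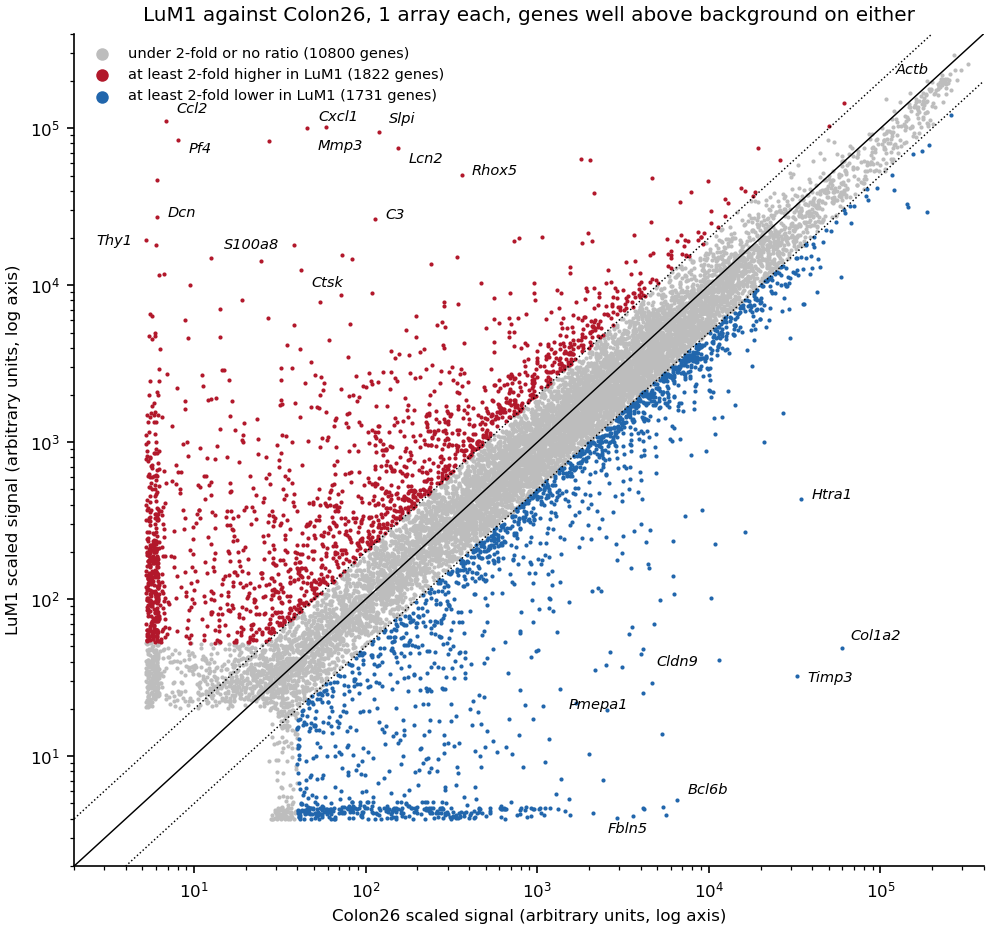
Scaled signal of each of the 14353 readable genes in Colon26 cells (x axis) and LuM1 cells (y axis), both on log axes, 1 array per line. The solid line marks equal signals and the dotted lines 2-fold. Red marks the 1822 genes with a LuM1 signal 2-fold or more above that of Colon26, and blue the 1731 with one 2-fold or more below it. Points at the left and lower edges were not above background on 1 array and have only bounds.

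Several measurements limit the reading of single genes. The scanner error was 10.0% of a bright signal and its median for a ratio was 0.20 on the log2 scale. Spots lit on the Colon26 array alone gathered in clusters on the slide: these held 6.64% of all gene spots but 154 (32.2%) of the 478 genes lower by a bound, and 129 (10.3%) of those lower and read on both arrays. The named genes with a spot in such a cluster that were nevertheless higher in LuM1 cells were *Ctsk*, *Rhox5*, *Cxcl5*, *Il6*, *Mmp9*, *Tgfbi* and *Hoxc6*, and those that were lower are pointed out. Where a gene read on both arrays had further probes, 68.5% of those of higher genes were also at least 2-fold higher, and 73.9% of those of lower genes were also at least 2-fold lower. The commonly used reference genes differed little, with log2 ratios of -0.16 for *Actb*, -0.14 for *Gapdh*, -0.12 for *Hprt* and -0.42 for *Tbp*, all of which turned above 0 with the authors' processed values. An exception was *B2m*, the light chain of MHC class I, at 63132 ± 6313 in LuM1 cells and 25909 ± 2591 in Colon26 cells (signal ± scanner error), 2.44-fold higher.

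The genes that stood highest over Colon26 encoded secreted inflammatory and matrix-degrading proteins. *Cxcl1*, a chemokine that draws neutrophils, gave 100977 ± 10098 units in LuM1 against 45.8 ± 7.46 in Colon26, a 2206-fold difference. *Mmp3*, the protease stromelysin-1, read 101730 ± 10173 against 58.5 ± 8.22 and was 1740-fold higher. *Slpi*, a secreted inhibitor of leukocyte proteases, was at 95154 ± 9515 and 119 ± 13.3, and its second probe gave a log2 ratio of 2.27 beside 9.64. *Lcn2* was at 74670 ± 7467 and 154 ± 16.4, which is 484-fold, or 8.92 on the log2 scale. Its second probe, not above background in Colon26 cells, gave a bound of 9.29.

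Behind these came genes of several kinds. *S100a8*, a calcium-binding alarmin of myeloid cells, had 18012 ± 1801 in LuM1 cells and 38.3 ± 6.52 in Colon26 cells, 470-fold apart. *Ctsk*, the collagen-cleaving cathepsin K of osteoclasts, was 295-fold higher at 12427 ± 1243 and 42.1 ± 7.38. *C3*, the central complement protein, was 233-fold higher at 26431 ± 2643 and 114 ± 12.8, and its second probe gave 35.9-fold. The remaining members of the leading 12 were *Gda* (guanine deaminase, 215-fold), *Gpsm3* (a G-protein regulator, 176-fold), *Sipa1l2* (145-fold), *Mapt* (the microtubule protein tau, 145-fold) and *Rhox5* (a homeobox gene of the X chromosome, 138-fold). The 4 probes of *Mapt* ranged from 3.10 to 7.64 on the log2 scale, all higher in LuM1 cells. Only 2 of them were above background in Colon26 cells, and the other values are bounds.

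A further set was bright in LuM1 cells and not above background in Colon26 cells. *Ccl2*, the monocyte chemokine, stood at 110821 ± 11082 in LuM1 cells and 6.85 ± 5.45 in Colon26 cells, at least 4204-fold higher. *Pf4*, the platelet chemokine, stood at 83607 ± 8361 against 8.09 ± 5.72, at least 3172-fold. *Saa3*, an acute-phase protein, stood at 83332 ± 8333 against 27.2 ± 6.54, 3062-fold. Each of these 3 values is larger than the ratio measured for *Cxcl1*, and that of *Saa3* is a plain ratio and not a lower limit. The others were *Dcn* (the proteoglycan decorin, at least 1029-fold), *Thy1* (a surface glycoprotein, at least 732-fold), *Ccl7* (at least 688-fold), *Myo1g* (a myosin of blood cells, at least 569-fold) and *Crabp1* (a retinoic acid binding protein, at least 545-fold). A second probe of *Crabp1* gave a bound of 79.7-fold.

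The signals of NM11 cells separated these leading genes. *Pf4* and *Myo1g* read 4.22 and 5.64 in NM11 cells, no higher than in Colon26 cells. *Ctsk* read 98.2, *Mapt* 88.0, *S100a8* 292 and *Gpsm3* 355, far nearer to Colon26 than to LuM1. In contrast *Ccl2* read 92236 and *Thy1* 15663 in NM11 cells, close to LuM1. *Crabp1* and *Rhox5* were brightest in NM11 cells, at 202882 and 92546. *Cxcl1* (21780), *Mmp3* (30424), *Slpi* (23234), *Lcn2* (7855) and *C3* (5269) read below LuM1 but far above Colon26 in NM11 cells. So did *Gda* (4568), *Sipa1l2* (2737), *Saa3* (3119), *Dcn* (9753) and *Ccl7* (5494). Colon26 is the shared point of both comparisons, so these values are only set side by side.

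Genes lower in LuM1 cells were led by structural and inhibitory proteins of the matrix. *Col1a2*, a chain of type I collagen, had 48.9 ± 6.79 in LuM1 cells against 59787 ± 5979 in Colon26 cells, 1222-fold lower. *Timp3*, an inhibitor of metalloproteinases that binds to matrix, had 32.4 ± 5.53 against 32547 ± 3255, 1006-fold lower (-9.97 on the log2 scale). Its second probe, not above background in LuM1 cells, gave a bound of -9.78. NM11 cells read 86641 for *Col1a2* and 30219 for *Timp3*, at the Colon26 level or above. *Cldn9*, a tight junction claudin, was 277-fold lower at 41.2 ± 6.09 and 11424 ± 1142, and here NM11 cells, at 74.8, stood with LuM1.

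*Pmepa1*, a target and inhibitor of transforming growth factor beta (TGF-beta), was 164-fold lower at 25.4 ± 4.99 and 4154 ± 415. *Htra1*, a secreted serine protease, was 79.5-fold lower but still clearly read in LuM1 cells, at 432 ± 43.4 and 34346 ± 3435. Other genes of the leading 12 were *Iftap* (159-fold), *Lgals7* (the keratinocyte lectin galectin-7, a log2 ratio of -6.64), *Thbs1* (thrombospondin-1, 89.0-fold), *Fgf7* (keratinocyte growth factor, 86.0-fold), *Car6* (a secreted carbonic anhydrase, 68.5-fold) and *Gm10639* (66.3-fold). On the log2 scale *Iftap* was at -7.32 and *Thbs1* at -6.48. Their second probes, not above background in LuM1 cells, gave bounds of -5.93 and -4.64. Genes read only in Colon26 cells, outside the clusters of spots, were led by *Bcl6b* (a transcriptional repressor, at least 330.2-fold lower), *Fbln5* (fibulin-5 of elastic fibres, at least 282-fold), *Pdgfc* (a platelet-derived growth factor, at least 273-fold), *Tmem184a* (at least 268-fold), *Irx1* (a homeobox gene, at least 211-fold), *Ces1g* (a carboxylesterase, at least 208-fold), *Itgbl1* (at least 182-fold) and *Aspa* (aspartoacylase, at least 147-fold).

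**Figure D2:**
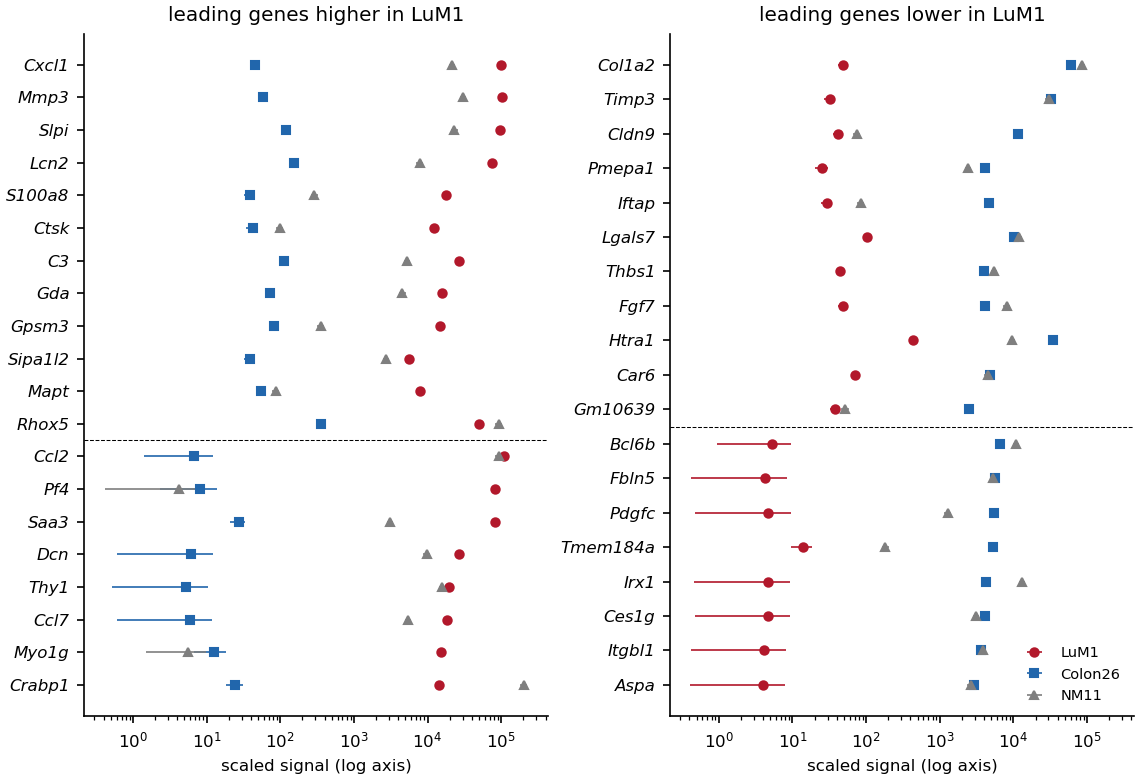
Scaled signal (log axis) of the leading genes named in the text, higher in LuM1 cells on the left (12 read on both arrays, above the dashed line, and 8 with bounds, below it) and lower on the right (11 and 8). Circles are LuM1, squares Colon26 and triangles NM11, with bars for the scanner error, shortened where they would reach 0 on the log axis. NM11 cells are near or above LuM1 for *Ccl2*, *Thy1*, *Rhox5* and *Crabp1*. They are below LuM1 but far above Colon26 for *Cxcl1*, *Mmp3*, *Slpi*, *Lcn2*, *C3*, *Gda*, *Sipa1l2*, *Saa3*, *Dcn* and *Ccl7*. *Cldn9*, *Iftap* and *Gm10639* are dim in both sublines.

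Across 61 lists of related genes the shares at least 2-fold apart were set against the 12.7% higher and 12.1% lower of all readable genes. The plot of shares by list runs from acute-phase genes and matrix metalloproteinases, mostly higher in LuM1 cells, to ribosome biogenesis, where nothing was higher. Lists overlap in some members, and with 1 array a side each count describes these 2 cultures.

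**Figure D3:**
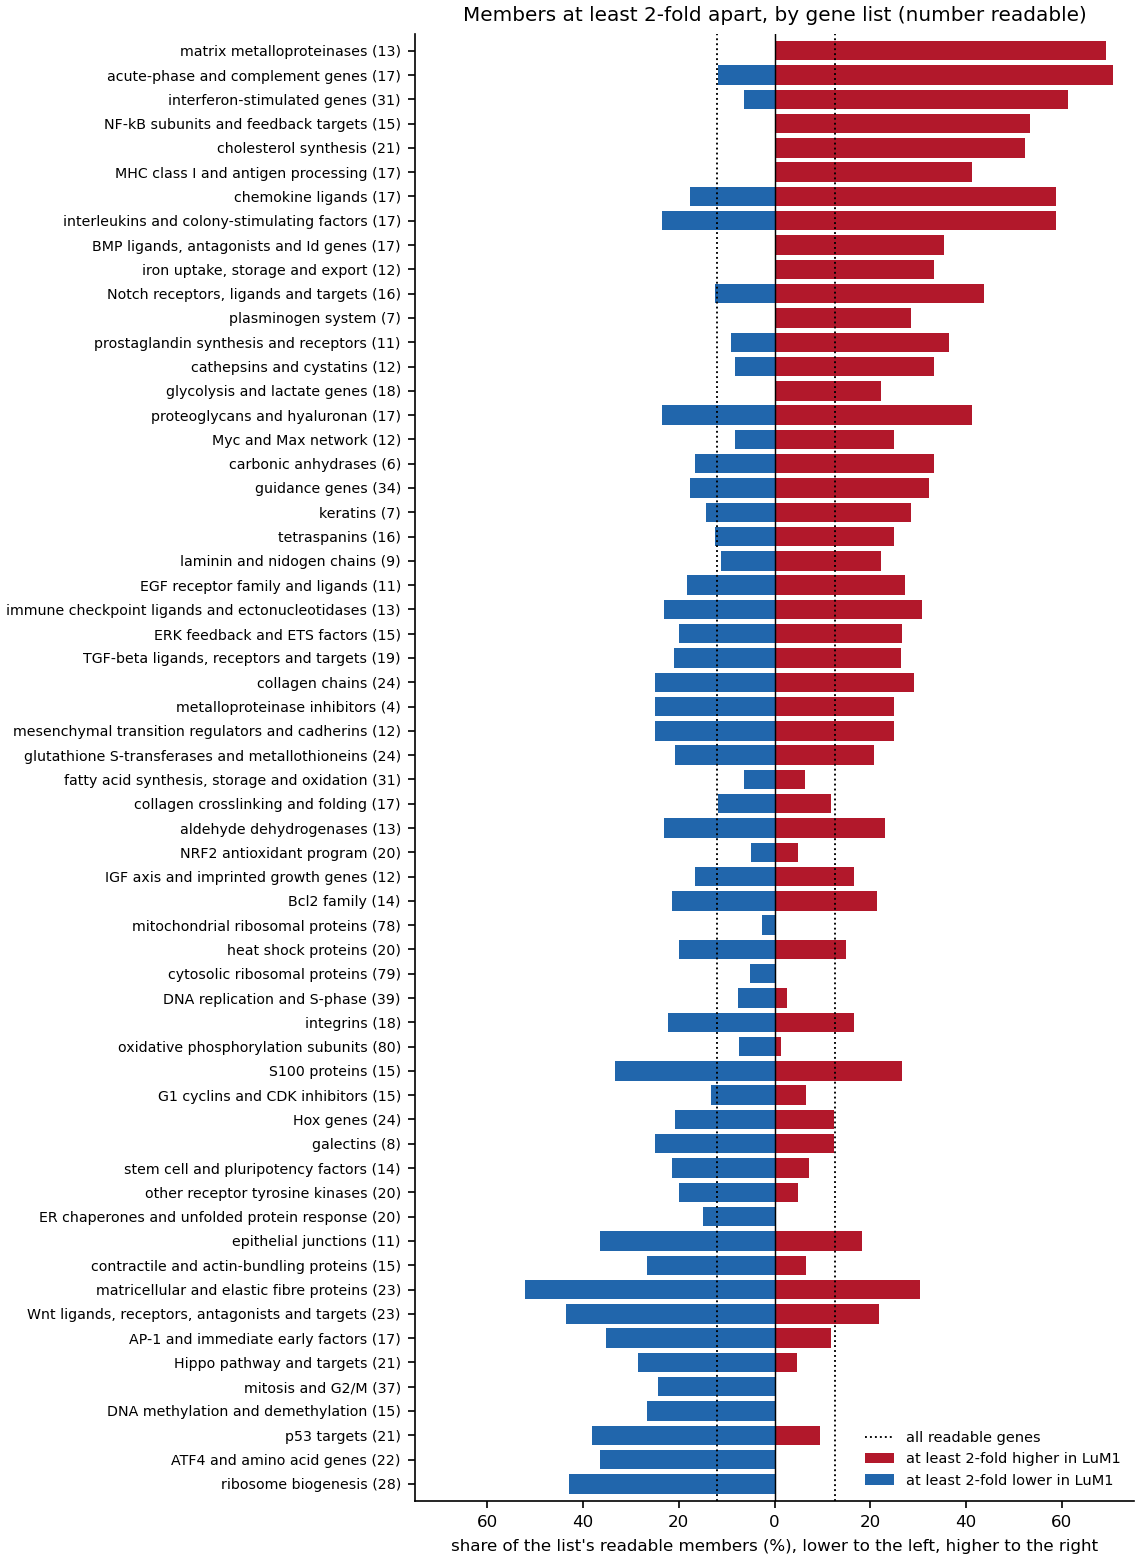
Share of the readable members of each gene list (number readable in brackets) with a difference of 2-fold or more, upward (red, to the right) or downward (blue, to the left) in LuM1 cells. Dotted lines mark all readable genes, at 12.7% higher and 12.1% lower. Proteasome subunits, with 0 members apart, are not drawn.

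Acute-phase and complement genes had the highest median of the 61 lists. Of 17 readable, 12 were at least 2-fold higher and 2 lower, and the 9 read on both arrays had a median log2 ratio of 3.79 with all 9 above 0. Relative to all genes the median lay between 2.79 and 3.98 over the alternatives. *Hp*, the haemoglobin-binding haptoglobin, was at 10078 ± 1008 in LuM1 cells and 9.41 ± 5.35 in Colon26 cells, at least 382-fold higher. *Saa1*, a serum amyloid, was 56.6-fold higher at 13589 ± 1359 and 240.1 ± 24.6, and the complement protease *C1s1* was 27.3-fold higher. Of the 2 that were lower, *Cfi*, the complement inhibitor factor I, was read only in Colon26 cells (348 ± 35.3) and lay in a cluster of Colon26 spots, and the receptor *C5ar1* was near background there (51.9 ± 8.03).

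Chemokine ligands were more often above background in LuM1 cells. Of 17 readable, 16 were above background in LuM1 cells and 7 in Colon26 cells, with 10 at least 2-fold higher and 3 lower. With the authors' values 11 were higher and 1 lower. The median of the 6 read on both arrays was -0.33 (-0.18 relative to all genes), and it turned above 0 with the authors' processed values, so it does not describe the list. Beside *Ccl2*, *Cxcl1* and *Ccl7*, *Cxcl5* (a neutrophil chemokine) was at 46766 ± 4677 in LuM1 cells and 6.08 ± 6.10 in Colon26 cells, at least 1774-fold higher. In the other direction *Ccl9* was 2.42-fold and *Ccl5* 2.12-fold lower, and *Cxcl13*, at least 7.62-fold lower, lay in a cluster of Colon26 spots. Both *Ccl5* and *Ccl9* were brightest in NM11 cells, at 3009 and 836.

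Interleukins, colony-stimulating factors and their receptors went both ways, with 10 of 17 higher and 4 lower (10 and 2 with the authors' values). *Il6*, the main inducer of the acute-phase response, was at 4704 ± 470.4 in LuM1 cells and 14.2 ± 5.81 in Colon26 cells, at least 178-fold higher, and both its probes were higher. *Osmr*, the oncostatin M receptor, was 38.0-fold higher, but its 2 probes gave 1.49 and 5.25. The granulocyte factors *Csf3* and *Csf2* were higher by bounds of 4.96 and 4.53 on the log2 scale. *Csf1*, the macrophage growth factor, was the reverse, at 5983 ± 598 and 22456 ± 2246, 3.75-fold lower. *Il1rl1*, the receptor of interleukin-33, was 4.76-fold lower, *Il15* 2.72-fold and *Il33* 2.08-fold.

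NF-kB subunits and feedback targets had 8 of 15 members higher and 0 lower, with a median of 1.03 (1.18 relative to all genes). *Bcl3*, an atypical inhibitor that binds NF-kB in the nucleus, was at 11840 ± 1184 and 6.72 ± 5.44, at least 449-fold higher. *Nfkbiz*, another nuclear regulator, was 20.2-fold higher, and *Birc3* and *Traf1*, which act in receptor signalling, were higher by at least 7.92-fold and by a measured 7.46-fold. *Nfkbia*, the classical feedback inhibitor, was 5.69-fold higher at 20801 ± 2080 and 3653 ± 365. NM11 cells read 6447 for *Bcl3* and 14416 for *Nfkbia*, nearer to LuM1 than to Colon26.

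Interferon-stimulated genes were higher in 19 of 31 readable members and lower in 2, with a median of 1.40 (1.54 relative to all genes). *Gbp2*, a guanylate-binding protein, was 12.7-fold higher at 363 ± 36.5 and 28.6 ± 6.36, and *Usp18*, a brake on interferon signalling, was 8.36-fold higher. *Irf7* was 6.15-fold higher. For each of these 3 genes NM11 cells read higher than LuM1 cells, for *Irf7* at 8252 ± 825 against 2435 ± 244. *Oasl1* ran the other way, 7.43-fold lower with both probes close together, and *Cmpk2*, at least 17.2-fold lower, lay in a Colon26 cluster. MHC class I and antigen processing genes were higher in 7 of 17 and lower in 0, with a median of 0.54 (0.69 relative to all genes). Among them *Nlrc5*, the transcriptional activator of class I genes, was 26.5-fold higher (its 2 probes gave 1.75 and 4.73), *Psmb9*, an immunoproteasome subunit, 7.83-fold, and *H2-T23* 2.86-fold. A list of immune checkpoint ligands and related enzymes, which also holds co-stimulators of T cells, had 4 of 13 higher and 3 lower. Among them were *Ido1* (at least 17.5-fold higher) and *Nectin2* (13.3-fold higher), whereas *Arg1* was read only in Colon26 cells, within a cluster.

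**Figure D4:**
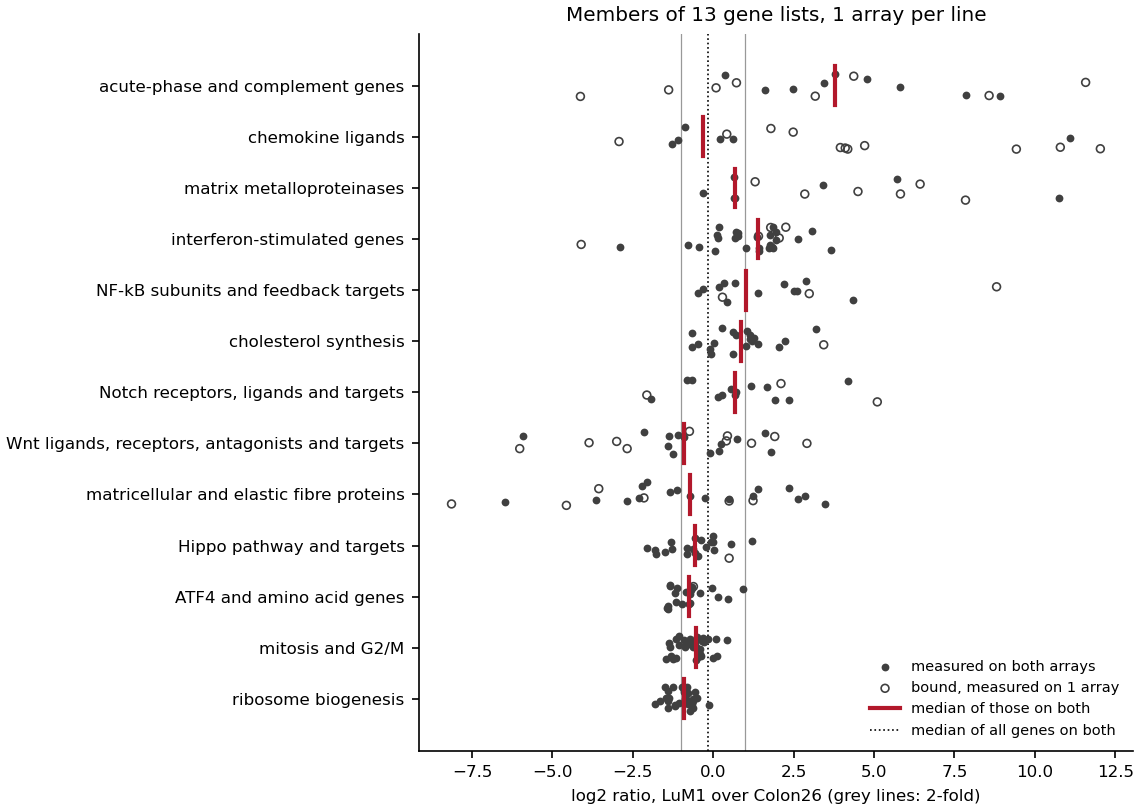
Log2 ratio of LuM1 over Colon26 for each member of 13 gene lists, 1 array per line. Filled points were read on both arrays, open points are bounds, red bars are medians of the filled points, the dotted line is the median of all genes read on both arrays (-0.15) and grey lines mark 2-fold. Acute-phase genes lie far to the right and ribosome biogenesis genes in a narrow band on the left.

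Matrix metalloproteinases were at least 2-fold higher in 9 of 13 readable members and lower in 0. All 13 were above background in LuM1 cells, but only 7 in Colon26 cells, against 13718 and 13032 of all 14353 readable genes. NM11 cells had 13 members of the list above background. *Mmp13* (collagenase-3) was at 6195 ± 620 and 27.0 ± 6.36, 229.9-fold higher, and *Mmp9* and *Mmp2*, the gelatinases, were at least 86.4-fold and 56.6-fold higher. *Mmp10* was 52.8-fold higher. *Mmp14*, the membrane-bound activator of *Mmp2*, differed less, at 618 ± 62.0 and 398 ± 40.3. Of their 4 readable inhibitors 1 was lower by 2-fold, *Timp3*, and 1 higher, the membrane-anchored *Reck*, by 2.02-fold, and of the plasminogen system 2 of 7 were higher, led by the urokinase *Plau* (7.72-fold, both probes).

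Collagen chains did not share a direction, with 7 of 24 higher and 6 lower (9 and 3 with the authors' values). *Col18a1*, a chain of basement membrane, was at 20115 ± 2012 and 783 ± 78.5, 25.7-fold higher, whereas *Col1a2* was among the lowest genes of the comparison. The pair *Col4a1* and *Col4a2*, which form one basement membrane trimer, were 3.88-fold and 2.94-fold higher. Of the other type IV chains, *Col4a5* was at least 29.4-fold and *Col4a4* at least 8.70-fold lower, the former in a Colon26 cluster although NM11 cells read it too (430.4 ± 43.2). *Col1a1*, the partner of *Col1a2* in type I collagen, was only 2.22-fold lower, at 2216 ± 222 and 4909 ± 491. *Loxl1*, which crosslinks elastin, was 21.4-fold lower at 47.3 ± 6.40 and 1015 ± 102.

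Matricellular and elastic fibre proteins were more often lower, in 12 of 23 members against 7 higher, with a median of -0.72 (between -0.69 and -0.04 relative to all genes over the alternatives). Below *Fbln5* and *Thbs1* came *Ccn4* (at least 23.7-fold lower) and *Thbs2*, at 252 ± 25.7 and 3171 ± 317, 12.6-fold lower. On the other side *Tgfbi*, a TGF-beta-induced adhesion protein, was at 417 ± 41.9 and 37.8 ± 6.55 (log2 ratio 3.46), and *Ltbp2*, of elastic fibres, was 7.21-fold higher. *Fn1*, fibronectin, was bright in both lines and 2.37-fold higher in LuM1 cells, at 144678 ± 14468 and 61152 ± 6115.

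Of the proteoglycan list 7 of 17 were higher and 4 lower. Next to *Dcn*, *Srgn* (serglycin, the granule proteoglycan of blood cells) was at 2459 ± 246 in LuM1 cells and 5.56 ± 5.57 in Colon26 cells, at least 93.3-fold higher. *Bgn* (biglycan) was 23.6-fold higher. *Ogn* (osteoglycin) was at least 77.5-fold lower, and the cell-surface glypican *Gpc1* 6.44-fold lower, at 4610 ± 461 and 29710 ± 2971. *Cd44*, the hyaluronan receptor, was 2.12-fold lower by its brightest probe, and its 3 probes ranged from -1.64 to -0.33.

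Integrins showed 3 of 18 members higher and 4 lower, a balance that turned to 5 and 3 without scaling and to 7 and 2 with the authors' values. *Itgb3*, the beta chain of the vitronectin receptor, was at 6532 ± 653 in LuM1 cells and not above background in Colon26 (5.53 ± 5.58) or NM11 cells (4.08 ± 4.09), at least 248-fold higher. *Itga6* and *Itgb4*, which pair as a laminin receptor, were 3.44-fold and 22.0-fold higher. *Itgb7*, a chain of leukocyte integrins, was 5.78-fold lower. Contractile and actin-bundling proteins were lower in 4 of 15 and higher in 1 (3 and 2 with the authors' values). Among tetraspanins, *Cd81*, a marker of extracellular vesicles, was 5.50-fold higher at 25362 ± 2536 and 4611 ± 461, and *Tspan5* was 7.70-fold lower.

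Regulators of the mesenchymal state were higher in 3 of 12 members and lower in 3. *Snai1* was 8.43-fold higher, at 1602 ± 160.3 and 190.1 ± 19.7, and *Prrx1* 3.88-fold higher. Their relatives *Snai2* and *Twist2* were 3.95-fold and 3.76-fold lower. *Vim*, vimentin of mesenchymal cells, was bright in both, at 78946 ± 7895 and 101951 ± 10195. The epithelial cadherin *Cdh1* was above background in neither line, and of 26 genes of epithelial junctions 15 were not read on either array.

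Of the Wnt genes 10 of 23 were lower and 5 higher, but 6 and 6 with the authors' values, with a median of -0.92, although relative to all genes it ran from -0.96 to 0.05 over the alternatives. *Wnt10a* was at 268 ± 27.2 and 16316 ± 1632, 60.9-fold lower, and *Wnt10b* at least 64.8-fold lower with both probes. *Wnt5a*, at least 14.5-fold lower, lay in a Colon26 cluster, while NM11 cells also read it (404 ± 40.7). The receptor *Fzd8* was at least 7.53-fold higher.

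Notch genes ran upward in 7 of 16 members and downward in 2, with a median of 0.68 (0.83 relative to all genes). The ligand *Dll1* was at 905 ± 90.6 and 6.03 ± 6.04, at least 34.3-fold higher, and the receptor *Notch4* 18.1-fold higher at 3755 ± 376 and 207 ± 21.6. *Jag1*, another ligand, was 3.85-fold lower with its spot in a Colon26 cluster. Bone morphogenetic protein genes were higher in 6 of 17 and lower in 0. Among them were the inhibitors of differentiation *Id3* (10.8-fold, 10293 ± 1029 and 954 ± 95.5) and *Id1* (8.05-fold), which are direct targets of this pathway, the decoy receptor *Bambi* (at least 13.7-fold) and the receptor *Acvrl1* (4.77-fold).

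In the TGF-beta list 5 of 19 were higher and 4 lower, and the median, -0.22 (-0.07 relative to all genes), turned above 0 with the authors' processed values. The co-receptor *Eng* was 12.8-fold higher, the activin-binding *Fst* 8.42-fold and the receptor *Tgfbr1* 5.10-fold. The feedback genes *Pmepa1* and *Smad7* were 164-fold and 2.79-fold lower. *Tgfb1* was 3.04-fold higher, but *Tgfb3* 3.32-fold lower, the latter in a Colon26 cluster. Hippo pathway genes were lower in 6 of 21 and higher in 1 (4 and 2 with the authors' values), with a median of -0.57 (-0.42 relative to all genes). *Amotl2* was 3.54-fold and *Ajuba* 3.40-fold lower, and *Ccn1*, 4.15-fold lower, lay in a Colon26 cluster. *Ankrd1*, another target of the pathway, was 2.29-fold higher.

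Of the epidermal growth factor family 3 of 11 were higher and 2 lower. The 8 members read on both arrays had a median of -0.88 (-0.73 relative to all genes), with 7 of them below 0. The median of all genes was itself below 0, at -0.15. *Egfr* itself was at 566 ± 56.7 in LuM1 cells and 7.44 ± 5.46 in Colon26 cells, at least 21.5-fold higher, and all 3 of its probes were higher. Its ligands *Areg* (14.8-fold) and *Tgfa* (at least 7.45-fold) were higher too, and *Nrg2*, a ligand of other family members, was 7.13-fold lower. *Pdgfra*, a receptor of mesenchymal growth factors, was 18.0-fold higher at 3909 ± 391 and 218 ± 22.6. The guidance receptor *Ephb2* was 8.12-fold lower, but its second probe gave only -0.80. Among 34 guidance genes 11 were higher and 6 lower (16 and 4 with the authors' values), at the extremes *Sema6d* (at least 69.8-fold higher by its brightest probe, with bounds from 0.71 to 6.13 over 3 probes), *Slit3* (20.6-fold lower) and *Sema7a* (61.1-fold lower, in a Colon26 cluster).

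Immediate early factors were lower in 6 of 17 members and higher in 2, but lower in 2 and higher in 2 with the authors' values. *Atf3*, induced by stress, was 5.14-fold lower at 310 ± 31.3 and 1592 ± 159, and *Egr3* was 4.19-fold lower. *Fos*, an AP-1 subunit, was among the 2 higher, at 200.3 ± 20.5 and 27.4 ± 6.36, 7.32-fold higher and higher still in NM11 cells (575 ± 57.6).

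Ribosome biogenesis genes were all 28 below 0, where the median of all genes was itself -0.15. Of them 12 were at least 2-fold lower (4 with the authors' values), and the median of the 28 was -0.91. Relative to all genes this median lay between -0.83 and -0.55 over the alternatives. *Rrp9*, a protein of small nucleolar particles, was at 974 ± 97.5 in LuM1 cells and 3447 ± 345 in Colon26 cells, 3.54-fold lower, and *Nhp2* and *Dkc1*, partners in one such particle, were 3.12-fold and 2.81-fold lower. *Myc*, a driver of ribosome production, was 2.27-fold lower with both probes (2616 ± 262 and 5947 ± 595). Of the Myc and Max network 3 of 12 were higher and 1, *Myc* itself, lower, with a median of 0.22 (0.37 relative to all genes). A link between *Myc* and the ribosome genes was not tested.

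Of 37 genes of mitosis 34 were below 0, where the median of all genes was itself -0.15. In the list 9 were at least 2-fold lower and 0 higher, with a median of -0.55 (between -0.42 and -0.20 relative to all genes). *Cdc25c*, which starts mitosis, was 2.75-fold lower and *Foxm1*, a transcription factor for mitotic genes, 2.52-fold lower. With the authors' processed values 0 of the mitotic genes were lower by 2-fold and their median was -0.09. *Mki67*, the proliferation antigen Ki67, was much alike, at 7522 ± 752 and 6864 ± 686. The 79 cytosolic ribosomal proteins had a median of -0.53 (-0.38 relative to all genes) with 4 lower and 0 higher, and 1 lower with the authors' values. Relative to all genes this median lay between -0.41 and -0.05 over the alternatives, and was -0.05 with quantile normalization. Medians of mitochondrial ribosomal proteins (-0.37, or -0.22 relative to all genes), subunits of oxidative phosphorylation (-0.37, or -0.22) and the proteasome (-0.33, or -0.18) turned above 0 with the authors' values. Of 80 subunits of oxidative phosphorylation 6 were lower and 1 higher, and 2 and 2 with the authors' values. Within this list the tissue-specific cytochrome oxidase subunits stood apart, *Cox7a1* 21.3-fold higher and *Cox6a2* 16.3-fold lower.

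Cholesterol synthesis genes were higher in 11 of 21 and lower in 0, with a median of 0.86, between 0.92 and 1.38 relative to all genes over the alternatives. *Hmgcs1*, an early step of the pathway, was at 9238 ± 924 and 1950 ± 195, 4.74-fold higher. *Hsd17b7* was 9.23-fold and *Idi1* 4.14-fold higher. For these 3 genes NM11 cells read above LuM1 cells, for *Hsd17b7* by less than the scanner error. In fatty acid metabolism 2 of 31 were higher and 2 lower, against 8 and 0 with the authors' values. The 2 higher were *Fabp4*, the fatty acid carrier of fat cells and macrophages, 120.4-fold at 8664 ± 866 and 72.0 ± 9.24, and *Dgat2*, which makes triglyceride, 11.3-fold.

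In the ATF4 and amino acid list 8 of 22 were lower and 0 higher, with a median of -0.74 (-0.59 relative to all genes), and 0 were lower by 2-fold with the authors' values. *Trib3* was at 25010 ± 2501 and 67789 ± 6779, 2.71-fold lower, *Nupr1* 2.65-fold, *Ddit3* 2.63-fold and the serine-pathway enzyme *Psat1* 2.54-fold lower. Targets of p53 were lower in 8 of 21 and higher in 2, and lower in 5 and higher in 4 with the authors' values. *Pmaip1*, which encodes the death protein Noxa, was at 870 ± 87.1 in Colon26 cells and not above background in LuM1 (4.07 ± 4.08) or NM11 cells (4.01 ± 4.02), at least 43.8-fold lower. *Fas*, the death receptor, was 67.2-fold higher by its brightest probe and 0.63 on the log2 scale by the second. *Cdkn1a* and *Mdm2*, the standard readouts of p53, differed little, with log2 ratios of -0.39 and -0.04.

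Among 24 glutathione transferases and metallothioneins 5 were higher and 5 lower (7 and 4 with the authors' values). Of theta transferases, *Gstt1* was higher at 1909 ± 191 and 13.5 ± 6.08 (at least 72.4-fold) and *Gstt3* 11.4-fold. Of alpha transferases, *Gsta2* was at least 47.4-fold and *Gsta3* at least 22.0-fold lower. *Nqo1*, a quinone reductase and target of NRF2, was at least 16.9-fold lower, at 4.23 ± 4.25 and 335 ± 34.0, while *Hmox1*, haem oxygenase, was 2.57-fold higher. Of heat shock proteins 3 of 20 were higher and 4 lower (4 and 2 with the authors' values), with the small heat shock proteins *Hspb1* at least 19.2-fold higher and *Cryab* 16.4-fold lower. NM11 cells were dim like LuM1 cells for *Gsta2* (20.8), *Nqo1* and *Cryab* (465), and dim like Colon26 cells for *Hspb1* (4.11).

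Markers of cell types were read to check the labels. Of 16 markers of colon epithelium 9 were above background in neither line, among them *Cdh1*, *Krt18*, *Krt19*, *Cdx1*, *Vil1* and *Muc2*. *Krt8* was dim in both (106 in LuM1 and 28.9 in Colon26 cells), *Krt20* was 12.1-fold lower at 53.8 ± 6.94 and 650.2 ± 65.3, and *Epcam* barely passed background in LuM1 cells (27.6 ± 5.11). Most defining markers of the epithelium named in the labels were thus not above background in either culture. Fibroblast and mesenchyme markers were read in 11 of 12, with *Vim* bright throughout, and 4 were higher (*Dcn*, *Thy1*, *Pdgfra*, *Col3a1*) and 3 lower (*Col1a2*, *Postn*, *Col1a1*). Their summed signals were 144291 over the 10 above background in LuM1 cells and 179626 over the 9 in Colon26 cells.

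Markers of vessel and blood cells were read in part, and the lists differed in how many of those read were higher in LuM1 cells. Of 4 endothelial markers read 3 were higher and 0 lower. *Cd93*, known from endothelium and myeloid cells, was at 15102 ± 1510 and 341 ± 34.6, 44.2-fold higher, and *Myct1* was 54.8-fold higher, but 10 of 14 endothelial markers, with *Cdh5*, *Kdr*, *Tek* and *Tie1*, were above background in neither line. The summed signal of the 4 read was 17834 in LuM1 and 509 in Colon26 cells. Of macrophage markers 5 of 7 readable were higher and 0 lower, led by the lysosomal *Cd68* at 5178 ± 518 and 172 ± 18.1 (30.1-fold), and the other 7 of 14, with *Ptprc*, *Adgre1*, *Tyrobp* and *Spi1*, were not above background. Their summed signals were 16985 and 7053. Of 8 osteoclast markers read 4 were higher, among them *Ctsk* and *Mmp9*, and 0 lower, and their summed signals were 15798 and 733. Each sum covers only the markers above background on that array. These were 8 in LuM1 and 5 in Colon26 cells for osteoclasts, and 7 and 5 for macrophages. In LuM1 cells *Ctsk* alone gave 12427 of the osteoclast sum and *Cd93* alone 15102 of the endothelial sum.

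Neutrophil markers were read in 5 of 10, with *S100a8* the only one apart, and its usual partner *S100a9* was not above background in either line. The summed signals of the 5 read were 70774 in LuM1, 46647 in Colon26 and 43016 in NM11 cells. Of 11 lymphocyte markers 5 were read, with 0 higher and 1 lower. Of 9 neuronal markers read, 3 were higher (*Mapt*, *Gap43*, *Syn1*) and 3 lower (*Nefm*, *Nefl*, *Tubb3*). *Gap43*, a growth cone protein, was at 2218 ± 222 and 7.96 ± 5.99, at least 84.1-fold higher, and *Nefm*, a neurofilament, at 169 ± 17.4 and 4426 ± 443, 26.2-fold lower. Among developmental factors *Sox2* was 52.1-fold lower, at 20.8 ± 4.58 and 1085 ± 109. Of 24 readable Hox genes 3 were higher and 5 lower, a balance that turned to 4 and 3 without scaling and to 8 and 1 with the authors' values, with *Hoxd10*, at least 17.4-fold lower, and *Hoxc6*, 3.44-fold higher, at the extremes.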

How the data were processed

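RNA of LuM1, Colon26 and NM11 cells (total RNA, 0.1 µg, Cy3) was hybridized to 1 array per line on 1 slide, as the labels and methods state. The authors deposited intensity values per spot from Feature Extraction 11.5.1.1, background-subtracted and not scaled between arrays, and flags per spot as a score of 0 or 1 for outliers, saturation and detection. They also deposited processed intensity values, each array multiplied by 1 factor (0.829 for LuM1, 0.654 for Colon26). The probes' design build was not used for coordinates.

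Control spots and outlier spots (74 on the LuM1 array, 137 on the Colon26 array) were left out; no spot was saturated. Spots of a repeated probe were averaged, with a median SD of 0.040 and 0.035 (log2). The 75th percentile, 433.4 for LuM1 and 398.0 for Colon26, was set to 400.0. Of the probes, 53.8% were well above background in LuM1 and 49.9% in Colon26 cells. Names came from RefSeq accessions on GRCm38.p6. A gene was represented by its probe with the highest mean log2 signal on the 3 arrays. The precision is limited by the number of arrays, 1 per line, and ± gives the scanner software's error. A cluster is a place where, in a window of 21 by 21 spots, spots lit on 1 array alone were over 3 times as frequent as on the whole array.

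The genes named were the 12 furthest apart in each direction among genes read on both arrays, the 8 with the largest bounds outside clusters, up to 4 members per list and direction with members of its central role, and reference genes. Some genes that this rule names are not reported here. *Reck*, *Igf2r* and *Igf2bp3* were named after their values were seen. Of the 45 leading and reference genes 33 had a promoter entry. The members and the 61 gene lists and 8 marker lists were chosen with earlier results of these data known. The authors' own comparisons were not used. In all, 14 alternatives were run, namely 8 of scaling or background, 2 of detection, 2 of probe choice, clustered spots left out, and a 4-fold threshold. The script was checked on simulated data. Python 3.11.15, numpy 2.4.6, pandas 2.3.3, scipy 1.17.1, matplotlib 3.10.9, R 4.3.3 and limma 3.58.1 (normexp with an offset of 50) were used.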

Additional observations from a re-analysis of the deposited data

How the results depend on the processing

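Over the 13 alternatives that give a value per gene, 0 of 2594 values of the 201 named genes with one changed the direction of a gene at least 2-fold apart, and 439 moved by more than the scanner error. Scaling by 1 factor per array moves every ratio alike, by at most 0.46 here, so it could not turn such a gene. Neither could the 2 settings of detection, which use the same signals. The median of all genes moved by 0.12 without scaling, 0.16 with the 75th percentile over probes read on both arrays, 0.12 with scaling to *Hprt*, 0.10 with quantile normalization and 0.46 with the authors' processed values (log2). The share of higher genes among those apart, 51.3%, was 58.9%, 61.0%, 58.6%, 54.0% and 77.7% in these settings, 53.5% with scaling to the median and 52.97% with the probe brightest in LuM1 cells. The authors' values gave 3038 higher and 874 lower genes. Counting genes significantly above background, or all genes without a filter on dim probes, gave 2779 lower genes and a share of 47.7% in both cases, and a 4-fold threshold gave 840 and 546 genes and 60.6%. With no filter on dim probes the median of the endothelial markers, over all members rather than the 4 read, was -0.36 (-0.006 relative to all genes). Genes under 2-fold with the authors' values were *Cdc25c*, *Ddit3*, *Foxm1*, *Nupr1*, *Psat1*, *Trib3*, *Il15*, *Myc*, *Col1a1*, *Ccl9*, *C5ar1*, *Cd44*, *Ccl5*, *Il33* and *Tubb3*. Of these *Cd44*, *Ccl5*, *Il33* and *Tubb3* were so in 5 alternatives, *Col1a1* in 3, and *Myc*, *Ccl9* and *C5ar1* in 2, and *Jag1*, *Krt8*, *Reck* and *Igf2bp3* were under 2-fold with normexp. No paired analysis was possible because each line had 1 array. Bounds rest on the lowest signal above background, 26.4 in Colon26 and 19.8 in LuM1 cells, or on the gene's own dim signal where that was larger.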

Other observations

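Prostaglandin genes were higher in 4 of 11 and lower in 1, led by the prostacyclin receptor *Ptgir* at 1364 ± 137 in LuM1 cells and 164 ± 17.5 in Colon26 cells, 8.30-fold higher. Genes of iron handling were higher in 4 of 12 and lower in 0, with *Hfe*, a regulator of iron uptake, 20.8-fold higher next to *Lcn2*. Among regulators of DNA methylation 4 of 15 were lower and 0 higher (2 and 1 with the authors' values), and *Gadd45b* was 6.12-fold lower. S100 genes were higher in 4 of 15 and lower in 5, and higher in 4 and lower in 1 with the authors' values.

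Feedback regulators and ETS factors of the ERK pathway were higher in 4 of 15, with *Spry1* at least 17.3-fold and *Etv1* 7.67-fold higher, and lower in 3, with *Spry4* 4.01-fold lower, against 6 and 1 with the authors' values. In the list of insulin-like growth factor genes 2 of 12 were higher and 2 lower. The receptor *Igf2r* was 2.85-fold and *Igf2bp3* 2.22-fold higher, *Igf2bp2*, an RNA-binding protein, was 8.05-fold lower and *Igfbp6*, a binding protein for the growth factor, 4.69-fold lower.

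The 23611 probes without a name were left out of every gene count. Of these 11138 were read on either array, and 1215 (10.9%) were at least 2-fold higher and 1209 (10.9%) lower in LuM1 cells, with a median log2 ratio of -0.07.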
